A study of Mus musculus with 6 samples.

Results

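Periostin (*Postn*), its paralog *Tgfbi*, and 6 other genes of matricellular proteins (*Tnc*, *Thbs1*, *Thbs2*, *Sparc*, *Spp1*, and *Comp*) were followed in a mouse myoblast model of myotonic dystrophy type 1 (DM1). The members were found by gene name, 8 of the 55421 genes in the deposited tables. They were listed to ask whether the rise of *Postn* is shared by its relatives, and *Postn* was chosen by its log2 fold change and test result in this same contrast. The values below are therefore given for the members as descriptions, with no p-value, and the test outcome is stated only as whether a gene passed an adjusted p-value of 0.05 with edgeR (called) and, beside that, an absolute log2 fold change of 1 (past both cutoffs). These cutoffs are those of the study, which used DESeq2. With DESeq2, *Postn* and *Tgfbi* were the members past both.

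C2C12 is a mouse myoblast line that fuses into myotubes when serum is lowered. The normal group (C2C12-CUG5) carried a stably transfected GFP plasmid with 5 CTG repeats, and the DM1 group (C2C12-CUG200) carried the same kind of plasmid with 200 repeats. Both groups went through G418 selection and were taken at differentiation day 4, in medium with horse serum and insulin, with 3 libraries of total RNA in each group. The study calls the libraries of a group biological replicates, but neither the labels nor the methods say whether they came from separate transfections or cultures. Both lines carry GFP. The groups differ in line as well as in repeat length, and these cannot be told apart here. The repeat transgene itself was not analysed here.

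The counts per library summed to between 61707889 and 80957325. A count stands for 75 aligned bases and not for a read. Where a fragment covers more than 75 bases, counting error is larger than the counts alone would give. The myogenic genes *Myog*, *Myod1*, *Ckm*, and *Acta1* were detected in every library. Of the 14 myotube markers 10 were lower and 0 were higher in the DM1 group (edgeR's quasi-likelihood test, adjusted p-value under 0.05), and their summed level was 13266 to 14394 counts scaled to library size (CPM) in the normal libraries and 7852 to 9291 in the DM1 libraries. By the same test, 8.73% of all 19005 tested genes were lower and 7.13% higher. In bulk RNA, fewer cells of a type and less RNA per cell cannot be told apart.

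Matricellular proteins are secreted into the extracellular matrix but act mainly on cells, through integrins and other receptors, rather than as structural scaffold. They are scarce in resting adult muscle and appear during development, regeneration, and fibrosis. Periostin and the TGF-beta-induced protein encoded by *Tgfbi* are built from the same fasciclin (FAS1) domains, tenascin-C and the thrombospondins are multimeric adhesion modulators, SPARC and osteopontin (*Spp1*) bind collagen and integrins, respectively, and COMP is the thrombospondin of cartilage and tendon.

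The stretches before the start sites of *Postn*, *Tgfbi*, and *Tnc* are shown because these are the tested members with the 3 largest positive log2 fold changes (*Comp* failed the filter on low counts). They are from RefSeq on GRCm38.p6, 5′ to 3′ on the strand of the gene, and stop before both the RefSeq and the deposited start of the gene. *Postn* is from chr3:54360857-54361106 (plus strand), *Tgfbi* from chr13:56609336-56609522 (plus strand), and *Tnc* from chr4:64047016-64047265 (minus strand). Capitals mark TATAAA, the TATA box, and CAGAC, the short SMAD motif, on either strand (GTCTG is CAGAC read from the opposite strand).
Postn: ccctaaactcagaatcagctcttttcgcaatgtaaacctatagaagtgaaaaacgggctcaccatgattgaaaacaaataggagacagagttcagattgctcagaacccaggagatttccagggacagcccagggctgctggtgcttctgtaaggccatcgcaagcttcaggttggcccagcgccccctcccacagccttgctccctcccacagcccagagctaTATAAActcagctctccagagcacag
Tgfbi: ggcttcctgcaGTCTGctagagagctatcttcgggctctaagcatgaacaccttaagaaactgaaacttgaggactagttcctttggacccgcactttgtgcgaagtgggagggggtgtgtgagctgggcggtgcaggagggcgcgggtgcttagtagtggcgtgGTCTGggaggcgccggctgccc
Tnc: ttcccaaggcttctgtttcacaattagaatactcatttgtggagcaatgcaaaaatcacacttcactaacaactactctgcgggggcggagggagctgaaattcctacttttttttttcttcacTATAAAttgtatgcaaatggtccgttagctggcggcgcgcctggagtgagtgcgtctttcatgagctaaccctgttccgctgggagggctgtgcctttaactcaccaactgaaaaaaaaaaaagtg
The RefSeq windows of 250 bases before and 50 after a start were found for 6 of the 8 members, all but *Thbs1* and *Comp*. TATAAA was present in the windows of *Postn*, *Tnc*, *Thbs2*, and *Spp1*, and in 13.6% of all 32851 windows of this length. CAGAC was present in the windows of *Tgfbi*, *Tnc*, *Thbs2*, *Sparc*, and *Spp1*, in 49.6% of all windows, and its letters were not in the window of *Postn*. The match of *Tnc* lies after its start site and is not printed. An E-box (CANNTG) was present in *Tnc*, *Thbs2*, *Sparc*, and *Spp1* and in 72.3% of all windows, AP-1 (TGANTCA), TEAD (GGAATG), and CArG box matches were in none of the 6 (7.81%, 14.7%, and 1.63% of all windows). All motifs were searched on both strands. The window taken was the one nearest the deposited gene start, which for *Sparc* is 3103 bases away. No motif was present in all of the windows of *Postn*, *Tgfbi*, and *Tnc*, and no site of binding follows from a match.

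*Postn* and *Tnc* were higher in the DM1 group, and no member was lower. After a filter on low counts 7 members were tested, and *Comp* failed the filter. With an adjusted p-value under 0.05 there were 2 members higher, where 7.13% of all 19005 tested genes were higher and 8.73% lower. *Postn* alone also passed the cutoff of an absolute log2 fold change over 1, which 1.36% of the tested genes passed in the same direction and 2.18% in either. Since the contrast was used to choose *Postn*, these shares are given as background only. In 4 members, *Postn*, *Tgfbi*, *Tnc*, and *Sparc*, every DM1 library was above every normal library, as in 17.9% of tested genes. The median log2 fold change of the 7 tested members was 0.28, and it was 0.02 over all tested genes.

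**Figure D1:**
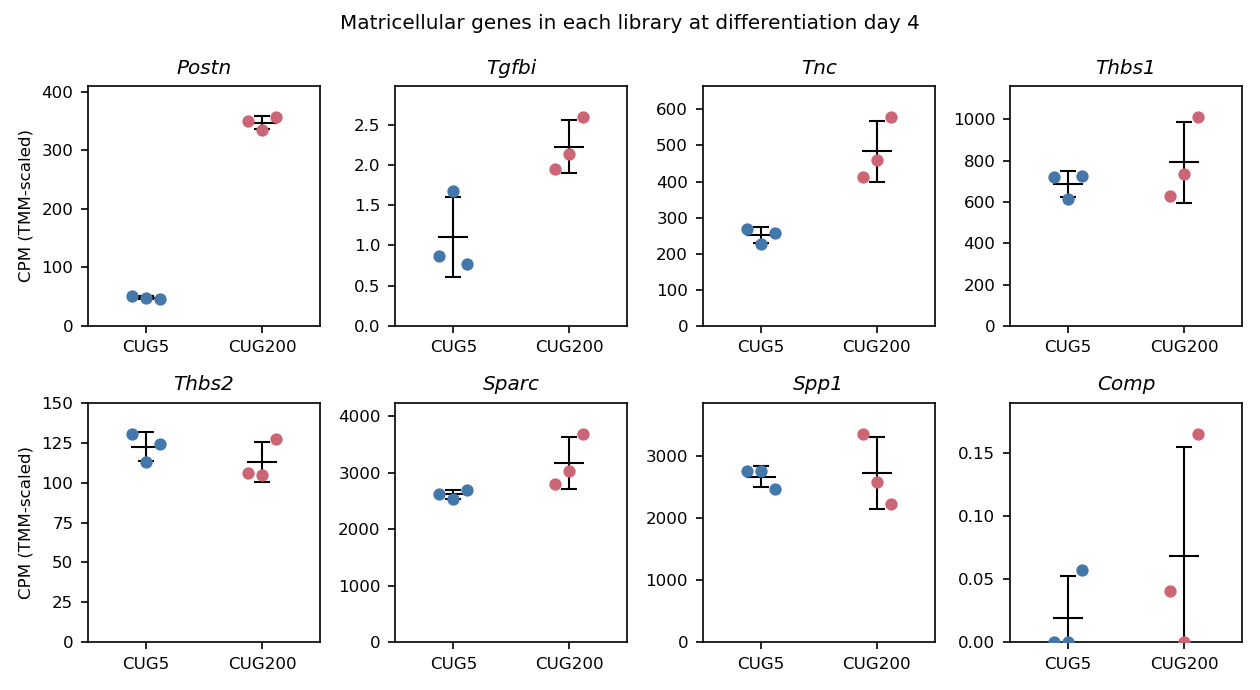
CPM (TMM-scaled counts, linear axes from 0) of the 8 genes in each of the 3 normal (CUG5, blue) and 3 DM1 (CUG200, red) libraries, with horizontal bars for the mean and error bars for the SD. *Postn* lies between 45.7 and 50.6 CPM in the normal group and between 334 and 356 CPM in the DM1 group, and the groups are also apart in *Tgfbi*, *Tnc*, and *Sparc*, while they overlap in the others.

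*Postn* encodes periostin, which binds collagen and fibronectin and signals through integrins. The gene (ENSMUSG00000027750) lies on chromosome 3 from 54361109 to 54391037 of GRCm38, on the plus strand. It was at 50.6, 47.1, and 45.7 CPM in the normal libraries and at 350.1, 334, and 356 CPM in the DM1 libraries. The groups were far apart, and the spread within each was small, with 47.8 ± 2.54 CPM (SD, n = 3) against 347 ± 11.2 CPM (SD, n = 3). The fitted log2 fold change was 2.86 with a standard error of 0.0865. Left out in turn, no library moved it below 2.84 or above 2.90.

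The paralog *Tgfbi* was barely expressed. It encodes a secreted FAS1-domain protein of the cornea and other connective tissues and is named for its induction by TGF-beta. The gene (ENSMUSG00000035493) lies on chromosome 13 from 56609523 to 56639562. The libraries of the normal group had 73, 103, and 54 counts and those of the DM1 group 145, 152, and 172. In CPM this was 0.868, 1.68, and 0.773 against 1.95, 2.13, and 2.59. All DM1 libraries were above all normal libraries, and normal library 2 came closest to the lowest of them. The log2 fold change was 1.01 with a standard error of 0.320, and *Tgfbi* did not pass an adjusted p-value of 0.05 with edgeR. It passed both cutoffs with DESeq2, at a log2 fold change of 1.02, with the counts divided by 4, at 1.01, and without normal library 2, at 1.43. With limma on log2 TPM it was not called, at 0.99 with an offset of 0.1 and at 0.53 with an offset of 1, which by construction shrinks the fold change of a gene this low. On simulated data DESeq2 made more false calls than edgeR.

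The difference in level between the paralogs was large in both groups. On the scale of length-scaled fragment counts (FPKM), *Postn* was 65.1, 33.0, and 75.3 times as high as *Tgfbi* in the normal libraries and 182, 169, and 133 times as high in the DM1 libraries. The mean level of *Tgfbi* in the DM1 group, 0.841 ± 0.192 FPKM (SD, n = 3), was below every normal library of *Postn*, the lowest of which was 19.3 FPKM. The other FAS1 genes, *Stab1* and *Stab2*, encode scavenger receptors and are named here outside the rule for named genes, after their values were seen. *Stab2* was at 1.23 ± 0.0411 CPM in the normal group and 2.17 ± 0.697 CPM in the DM1 group (SD, n = 3 each). Its fitted log2 fold change was 0.82, with an adjusted p-value of 0.0756 (edgeR), and it was called higher without DM1 library 1. *Stab1* had at most 37 counts in any library and a log2 fold change of 0.27 (adjusted p = 0.836, edgeR).

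*Tnc* encodes tenascin-C, which loosens cell adhesion and is a classical gene of injured and regenerating tissue. It lies on the minus strand of chromosome 4 from 63959785 to 64047015. The levels were 269, 226, and 258 CPM in the normal libraries and 413, 459, and 578 CPM in the DM1 libraries. The groups did not overlap, although the DM1 libraries were spread more widely, with 251 ± 22.5 against 484 ± 85.0 CPM (SD, n = 3 each). The log2 fold change was 0.95 with a standard error of 0.134, so the rise fell just short of the cutoff of 1. Without DM1 library 1 it was 1.06 and passed both cutoffs. The rise was not called with limma on log2 of the deposited TPM values (log2 fold change 0.81 or 0.82). On the opposite strand, exons of *8030451A03Rik* overlap *Tnc*. That gene had 335, 193, and 295 counts in the normal group and 632, 625, and 695 in the DM1 libraries, at most 2.06% of the counts of *Tnc* in the same library, and the strand setting of the counting is not given in the sources used here.

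The thrombospondins did not pass the test. *Thbs1* encodes thrombospondin-1, which can activate latent TGF-beta and inhibits angiogenesis, and lies on chromosome 2 from 118111876 to 118127133. It was at 720.4, 616, and 724 CPM in the normal libraries and 628, 736, and 1009 CPM in the DM1 libraries. The groups overlapped, with only DM1 library 3 clearly above the normal libraries. The log2 fold change was 0.20 with a standard error of 0.167, and it was -0.01 without DM1 library 3. *Thbs2*, on chromosome 17 from 14665500 to 14694235, encodes the close relative thrombospondin-2. It was at 130.5, 113, and 124 CPM in the normal libraries and at 106, 105, and 127 CPM in the DM1 libraries, which overlapped. Its fitted log2 difference, -0.12 with standard error 0.102, was the only one below 0 among the tested members. *Comp*, on chromosome 8 from 70373558 to 70382066, was almost absent. It had 0, 0, and 4 counts in the normal group and 3, 0, and 11 in the DM1 group. Across the libraries, 3 counts were worth 0.0357 to 0.0489 CPM. This would be the limit that a count of 0 allows if every count were a separate fragment. Since a count is not a read, the limit is higher where a fragment gives several counts. No fold change is given for *Comp*.

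*Sparc* and *Spp1* were the most abundant members. *Sparc*, a collagen-binding glycoprotein gene on chromosome 11 from 55394500 to 55423183, was at 2620.2, 2528, and 2698 CPM in the normal libraries and at 2805, 3038, and 3687 CPM in the DM1 libraries. Every DM1 library was above every normal library, but the log2 fold change of 0.28 (standard error 0.112) did not pass the test with all libraries. It passed without DM1 library 1, at 0.38. *Spp1*, on chromosome 5 from 104435118 to 104441050, encodes osteopontin, a secreted ligand of integrins and CD44. It was at 2760.2, 2755, and 2471 CPM in the normal libraries and at 3351, 2582, and 2219 CPM in the DM1 libraries. The DM1 libraries lay on both sides of the normal ones, and the log2 fold change of 0.03 (standard error 0.146) changed sign between settings. Exons of *Gm42793* overlap *Spp1* on the same strand, and it took between 212 and 554 counts, at most 0.254% of those of *Spp1* in the same library.

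**Figure D2:**
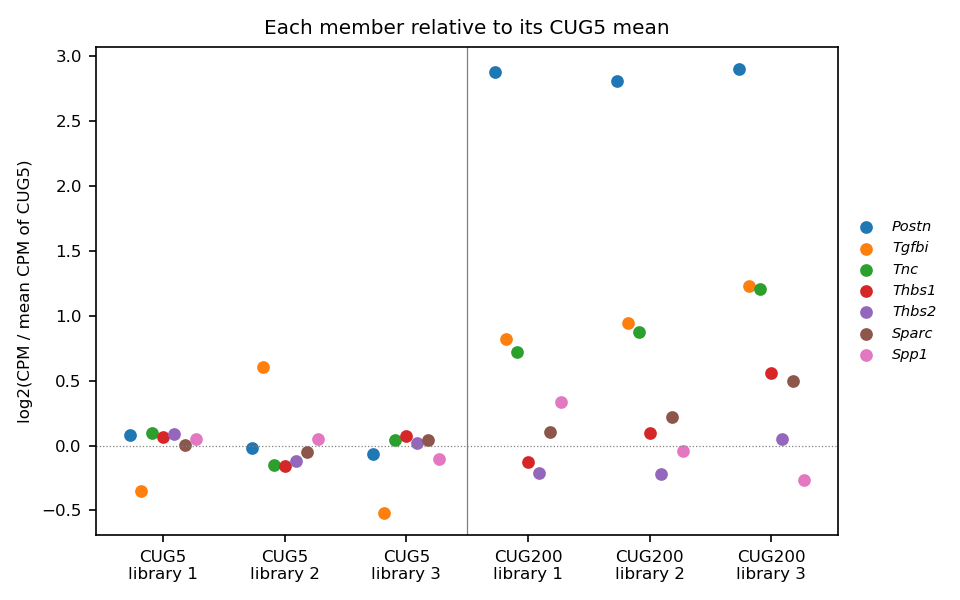
Level of each tested member in each library as log2 of its CPM over its mean CPM in the normal group (vertical axis, dotted line at 0), with the 6 libraries on the horizontal axis and a colour for each gene. *Postn* stands apart from the others in all 3 DM1 libraries, and *Tnc*, *Thbs1*, and *Sparc* are highest in DM1 library 3.

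DM1 library 3 was the highest of the 6 libraries for *Postn*, *Tgfbi*, *Tnc*, *Thbs1*, and *Sparc*, 5 of the 7 tested members, and it was the highest for 18.9% of all tested genes. It had the lowest total count of its group (63529148) and the highest TMM scaling factor (1.05) of all libraries. The part of these in the members' levels was not tested. Without it the log2 fold changes were 2.84 for *Postn*, 0.89 for *Tgfbi*, 0.80 for *Tnc*, and 0.16 for *Sparc*, and *Postn* and *Tnc* were still called.

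Per transcript length, *Postn* moved from the middle to the upper part of the order of levels. In the normal group *Spp1* was highest (1546 to 1728 FPKM), followed by *Sparc* (1015 to 1154), *Thbs1* (95.1 to 115), *Tnc* (28.5 to 34.8), *Postn* (19.3 to 19.8), *Thbs2* (17.5 to 20.7), *Tgfbi* (0.263 to 0.595), and *Comp* (0 to 0.0209). Only *Postn* and *Thbs2* overlapped among these neighbours. In the DM1 group *Postn* was at 127 to 141 FPKM and overlapped *Thbs1* (92.6 to 164), above *Tnc* (49.1 to 77.2), *Thbs2* (15.4 to 20.9), *Tgfbi* (0.710 to 1.06), and *Comp* (0 to 0.0598). *Spp1* (1462 to 1999) and *Sparc* (1085 to 1575) remained above it and overlapped each other. *Postn* was 0.932, 1.12, and 1.05 times as high as *Thbs2* in the normal libraries and 8.37, 7.91, and 6.75 times as high in the DM1 libraries. It took 0.628%, 0.692%, and 0.705% of the summed FPKM of the 8 genes in the normal libraries and 3.84%, 4.04%, and 4.11% in the DM1 libraries.

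**Figure D3:**
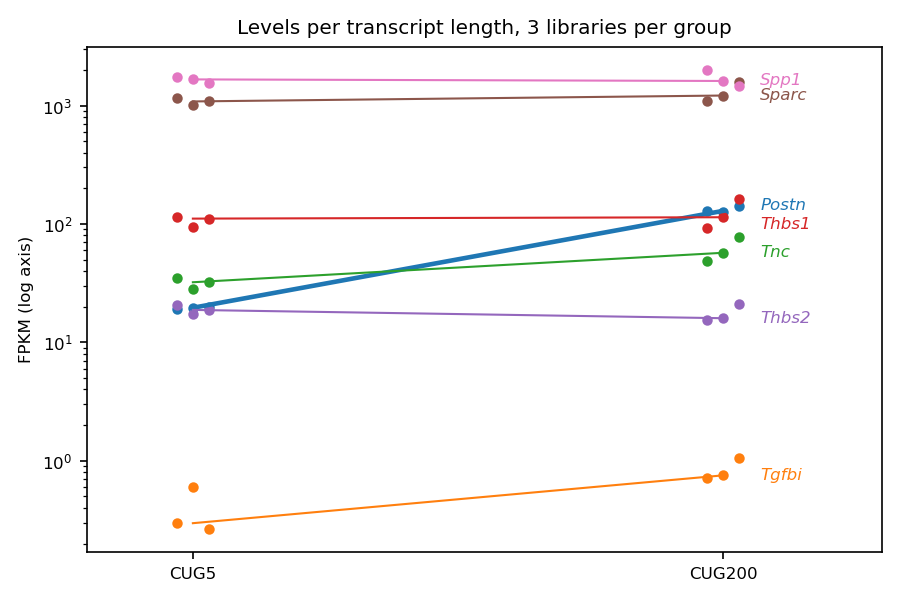
FPKM (log axis) of 7 of the genes in the normal (CUG5) and DM1 (CUG200) libraries, with points for libraries and lines joining the medians of the 2 groups. *Comp*, with values of 0, is not drawn, and *Postn* goes from the level of *Thbs2* to that of *Thbs1*.

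The genes most like *Postn* were taken as the 5 tested genes with the highest Pearson correlation with it in log2(CPM + 0.5) over the 6 libraries. They were *1600027J07Rik* (r = 0.9986), *Enpp1* (0.9981), *Tagln* (0.9971), *Fam221b* (0.9970), and *Gm21936* (0.9966). *Tagln*, which encodes the actin-binding protein transgelin of smooth muscle, was at 140.1, 124, and 121 CPM in the normal libraries and at 325, 304, and 326 CPM in the DM1 libraries. *1600027J07Rik* was listed at 0 in all normal libraries and at no more than 0.161 CPM in the DM1 libraries, and *Gm21936* was at most at 0.309 CPM. With 2 groups of 3, such a correlation mostly measures the difference between the groups. *Tnc* ranked 547th among the tested genes on this measure (r = 0.949), *Tgfbi* 2102nd (0.836), *Sparc* 3140th (0.753), *Thbs1* 6630th (0.393), *Spp1* 9475th (0.0340), and *Thbs2* 13221st (-0.4755).

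Other matricellular genes went in both directions. A list of 26 further genes held the other thrombospondins and tenascins, SPARC relatives, the CCN family, the bone matrix relatives of osteopontin, galectins, fibulin-5, and the 2 stabilins given above. Of the 19 tested, 5 were higher and 4 lower at an adjusted p-value under 0.05, and 10 did not pass. Over all tested genes 7.13% were higher and 8.73% lower. The median log2 fold change of the list was 0.39. Only *Dmp1*, a relative of osteopontin that encodes an acidic protein of bone and dentin matrix, also passed the fold cutoff. It fell from 11.3 ± 0.555 to 2.91 ± 0.555 CPM (SD over 3 libraries each), and the fitted log2 fold change was -1.96 with standard error 0.166 (adjusted p = 9.16e-04, edgeR).

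The SPARC relatives *Fstl1* and *Sparcl1* rose. *Fstl1*, which encodes the secreted follistatin-like 1, was at 671, 622, and 606 CPM in the normal libraries and at 1076, 1009.7, and 1062 CPM in the DM1 libraries. The groups were well separated, with a fitted log2 difference of 0.73 and standard error of 0.0829 (adjusted p = 0.00211, edgeR). *Sparcl1* rose from 12.5 ± 1.24 to 19.8 ± 0.490 CPM (log2 fold change 0.66, adjusted p = 0.00728, edgeR). In contrast, *Smoc2* of the same family fell from 7.47 ± 0.331 to 4.00 ± 0.841 CPM (log2 fold change -0.90, adjusted p = 0.0119, edgeR), a call lost without normal library 1 and without DM1 library 2. *Lgals1*, the gene of galectin-1, rose from 5089 ± 241 to 7679 ± 995 CPM (log2 fold change 0.59, adjusted p = 0.0103, edgeR), not called without normal library 3.

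Of the 6 genes of the CCN family of cysteine-rich regulators, *Ccn2*, *Ccn3*, and *Ccn5* passed the test and *Ccn1*, *Ccn4*, and *Ccn6* did not, with log2 fold changes of -0.10, -0.21, and 1.78 (adjusted p = 0.583, 0.115, and 0.0967, edgeR). *Ccn6* was barely expressed, with at most 28 counts in any library and means of 0.0864 CPM in the normal and 0.297 CPM in the DM1 group. *Ccn2*, the connective tissue growth factor gene and a common target of TGF-beta and YAP, fell from 99.2 ± 13.5 to 69.2 ± 8.56 CPM (SD, n = 3 each). Its log2 fold change was -0.52 (adjusted p = 0.0258, edgeR), and the call was lost without normal library 1 or 3 or DM1 library 1 or 2. *Ccn3* fell by 0.82 on the log2 scale (adjusted p = 0.0111, edgeR), and this call was kept with any 1 library left out. *Ccn5* rose by 0.78 (adjusted p = 0.0197, edgeR), and its call was lost without normal library 2 or 3 or DM1 library 2. Over this list the count of called genes went from 9 to 5 without normal library 3 and to 5 without DM1 library 2. With glmTreat, which tests against a log2 fold change of 1, it was 0.

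The collagen genes *Col1a1* and *Col5a1* and the collagen cross-linking enzyme gene *Lox* were higher beside *Postn*, also with any 1 library left out. A list of 22 genes held known partners of periostin in the matrix and regulators of its gene. Of 20 tested, 7 were higher and 2 lower, and 11 did not pass, with a median log2 fold change of 0.30. The shares over all tested genes were 7.13% higher and 8.73% lower. *Col1a1*, the main chain of type I collagen, rose from 284 ± 12.6 to 591 ± 45.3 CPM (SD over 3 libraries each), and the fitted log2 fold change was 1.06 with standard error 0.0898 (adjusted p = 9.16e-04, edgeR), which was 1.00 and no longer past the fold cutoff without DM1 library 3. *Col5a1* was at 560.3, 522, and 536 CPM in the normal libraries and 865, 973, and 1185 CPM in the DM1 libraries (log2 fold change 0.90, adjusted p = 0.00319, edgeR), and without DM1 library 1 its log2 fold change of 1.01 passed the fold cutoff too. *Lox* rose from 294 ± 28.7 to 463 ± 7.63 CPM (log2 fold change 0.66, adjusted p = 0.00400, edgeR). The calls of *Col5a1* and *Lox* were lost in the 3 limma settings and with glmTreat. That of *Col1a1* was lost with limma and no filter, and with glmTreat. *Col3a1*, the most abundant collagen gene of the list (2588 against 2983 CPM on average), did not pass, at a log2 fold change of 0.20 (adjusted p = 0.197, edgeR). The fibronectin gene *Fn1*, the second type I collagen chain *Col1a2*, and *Bmp1*, a protease of procollagen, were called at log2 fold changes of 0.50, 0.33, and 0.43 (adjusted p = 0.0379, 0.0331, and 0.0335, edgeR). These calls of *Fn1*, *Col1a2*, and *Bmp1* were lost without any 1 of the normal libraries, without DM1 library 2, with library sizes alone, in the 3 limma settings, and with glmTreat, and that of *Col1a2* also with no filter beyond 1 count.

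Of the TGF-beta ligands, receptors, and SMADs in this list, *Tgfbr1* and *Smad3* passed the test, both lower. *Tgfbr1*, a receptor gene, fell from 33.3 ± 2.03 to 19.8 ± 2.84 CPM (SD over 3 libraries each), and the fitted log2 fold change was -0.75 (adjusted p = 0.00617, edgeR). *Smad3*, a signal transducer gene, fell by 0.31 on the log2 scale (adjusted p = 0.0413, edgeR). This call was lost in every fit that left out a library except DM1 library 3. It was also lost with library sizes alone, in the limma settings, and with glmTreat. These are RNA levels and do not give the activity of the pathway. In western blots of the study, SMAD3 protein and its phosphorylated form were both higher in the DM1 cells at differentiation day 4. The ligand gene *Tgfb2*, at a log2 fold change of 0.39 (adjusted p = 0.0842, edgeR), was called higher with DESeq2, with the replicate block, and without DM1 library 1, where *Smad7* (0.43 with all libraries, adjusted p = 0.0952, edgeR) was called higher too. The ligand gene *Tgfb3* was called lower with DESeq2 and without DM1 library 3, as was *Tgfb1* in the latter fit. *Twist1*, a transcription factor known to act on *Postn* in other cells, was at 0 counts in all 6 libraries. The count of 9 called genes in this list fell to 4 without normal library 2, 5 without normal library 3, and 4 without DM1 library 2.

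Receptors for these proteins were mostly lower where they passed the test. Of 18 listed genes, 16 were tested, with 1 higher, 6 lower, and 9 that did not pass, and a median log2 fold change of -0.28. Among all tested genes 7.13% were higher and 8.73% lower. The integrin gene *Itgb5*, whose product pairs with alpha v to bind periostin, fell from 77.5 ± 3.74 to 54.7 ± 5.03 CPM (SD over 3 libraries each), and the fitted log2 fold change was -0.50 (adjusted p = 0.00922, edgeR), not called without normal library 3. *Itgb6* fell from 32.6 ± 1.56 to 21.8 ± 1.63 CPM (log2 fold change -0.58, adjusted p = 0.00688, edgeR), and this call was kept with any 1 library left out. *Itgb8* fell by 0.67 (adjusted p = 0.0280, edgeR), a call lost without normal library 2 or 3 or DM1 library 2, and with the replicate block. *Cacna2d1*, a calcium channel subunit gene of muscle and a thrombospondin receptor, was at 204, 133, and 237 CPM in the normal libraries and at 88.7, 95.5, and 89.0 CPM in the DM1 libraries. Its log2 fold change was -1.07 (adjusted p = 0.0113, edgeR), and the call was lost without DM1 library 1 and without DM1 library 3, while without normal library 3 it was called with a change smaller than the fold cutoff. *Cd47*, the thrombospondin-1 receptor, was the gene that rose, from 89.9 ± 0.873 to 119 ± 4.58 CPM (log2 fold change 0.41, adjusted p = 0.00965, edgeR), and it was not called without normal library 3. The count of 7 called receptors fell to 2 without normal library 3 and to 4 without DM1 library 2.

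**Figure D4:**
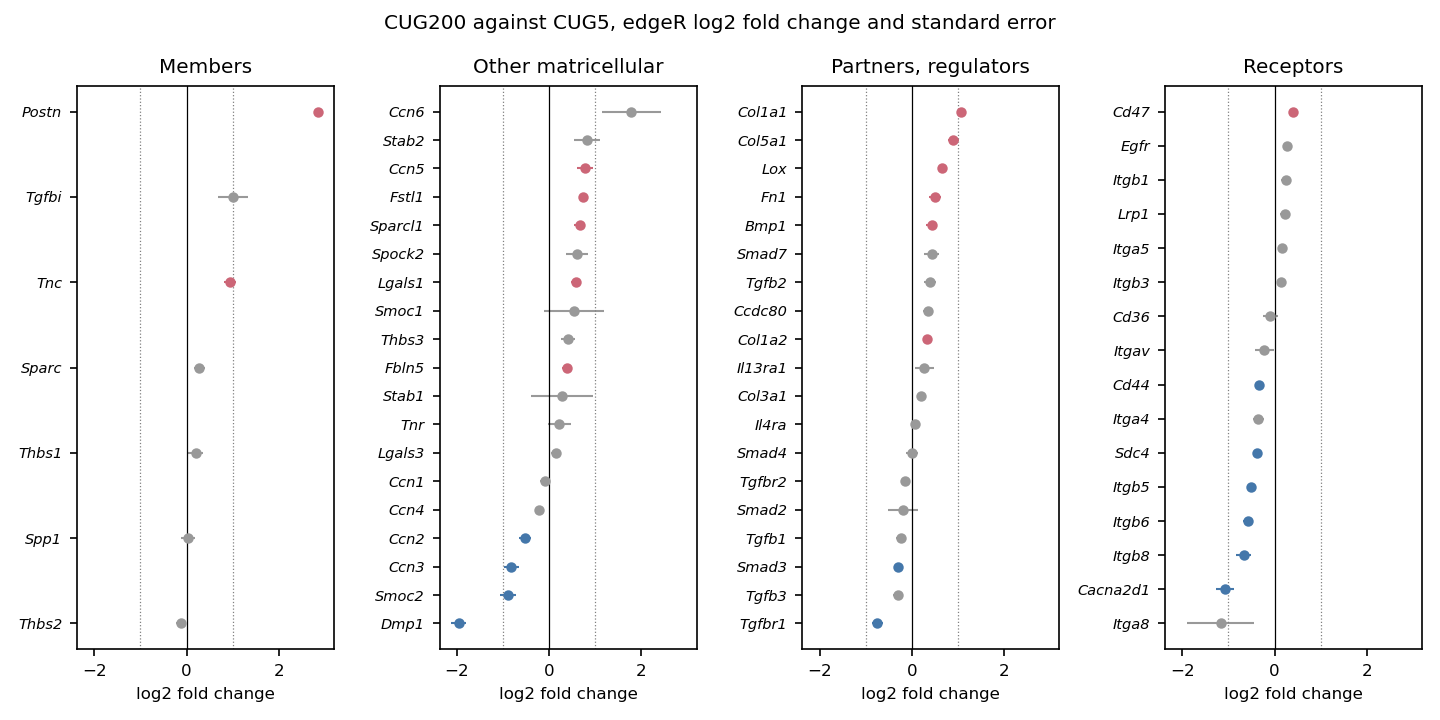
Log2 fold change of the DM1 against the normal group (horizontal axis, 3 libraries each) with its standard error from edgeR, for the tested genes of the members and 3 lists except 1 partner or regulator gene that is not drawn, with dotted lines at -1 and 1. Red and blue points had an adjusted p-value under 0.05 and were higher or lower, respectively, grey points did not pass, and *Postn* at 2.86 is the farthest to the right.

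Markers of muscle and other cells were examined beside these results. Of the myotube markers, *Myh8*, *Myh3*, *Actn2*, and *Mef2c* were lower past the fold cutoff, with log2 fold changes of -2.90, -1.32, -1.22, and -1.01 (adjusted p = 7.65e-05, 0.00270, 0.00211, and 0.0471, edgeR). The call of *Mef2c*, a transcription factor gene, was lost without normal library 2 and without any 1 of the DM1 libraries. It was also lost with no filter beyond 1 count (adjusted p = 0.112, edgeR), with limma and no filter, and with glmTreat. Without normal library 3, in which *Mef2c* was highest, its log2 fold change was -0.62 and not past the fold cutoff. The most abundant myotube markers, *Acta1* and *Ttn*, both fell by 0.91 on the log2 scale (adjusted p = 0.00359 and 0.00517, edgeR). The 4 that did not pass were *Mymk*, *Myf6*, *Mylpf*, and *Mymx*. Their log2 fold changes were -0.55, -0.61, -0.16, and 0.23 (adjusted p = 0.304, 0.296, 0.403, and 0.0732, edgeR). The fusion gene *Mymx* was at 60.6, 60.8, and 58.3 CPM in the normal libraries. It was higher in every DM1 library, at 69.5, 73.5, and 67.3 CPM, and was called higher without DM1 library 3.

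Of 9 tested fibroblast markers, 4 were higher and 0 lower, where 7.13% of all tested genes were higher and 8.73% lower. The summed level of the list was 1027 to 1336 CPM in the normal group and 1529 to 1612 CPM in the DM1 group. *Col15a1* and *Dpt* rose past the fold cutoff, with log2 fold changes of 1.54 and 1.08 (adjusted p = 0.00114 and 0.00304, edgeR), *Dcn* and *Lum* rose by 0.45 and 0.81 (adjusted p = 0.0281 and 0.0100, edgeR), and *Thy1* failed the filter with at most 4 counts. *Ly6a*, among the most abundant of the list, varied from 134 to 381 CPM in the normal and from 174 to 425 CPM in the DM1 group. *Fap* went the other way without passing the test (log2 fold change -1.08, adjusted p = 0.188, edgeR). It was at 1.88, 2.64, and 2.49 CPM in the normal libraries and lower, at 1.28, 1.70, and 0.331 CPM, in the DM1 libraries. *Pdgfra*, *Pi16*, and *Tcf4* did not pass, with log2 fold changes of 0.31, 0.12, and 0.04 (adjusted p = 0.115, 0.560, and 0.842, edgeR). Without DM1 library 1 the change of *Dpt* was below the fold cutoff, and *Dcn* was not called without any 1 of the normal libraries or DM1 library 2. Of 9 tested markers of undifferentiated and reserve myoblasts, *Cd34* was higher (log2 fold change 0.97, adjusted p = 0.00305, edgeR) and *Hey1*, *Heyl*, and *Notch1*, of the Notch pathway, were lower, with log2 fold changes of -2.33, -1.61, and -0.64 (adjusted p = 0.00198, 0.00109, and 0.00506, edgeR). The cartilage and tendon markers *Sox9* and *Scx* were lower, with log2 fold changes of -0.40 and -0.41 (edgeR, adjusted p = 0.0270 and 0.0479), calls lost in 4 and 5 of the 6 fits without 1 library, *Acan* and *Matn1* were at 0 counts, and the summed level was 101 to 121 CPM against 78.6 to 90.7 CPM. Osteogenic markers summed to 57.7 to 67.9 CPM in the normal and 52.9 to 65.0 CPM in the DM1 libraries, with *Dmp1* as the only call, and *Runx2* had a log2 fold change of 0.16 (adjusted p = 0.451, edgeR).

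Endothelial markers summed to 9.14 to 10.9 CPM in the normal and 5.06 to 6.71 CPM in the DM1 libraries. *Tek*, an endothelial receptor gene, fell from 8.74 ± 0.907 to 4.52 ± 0.992 CPM (log2 fold change -0.95, adjusted p = 0.0107, edgeR), a call lost without DM1 library 2, while *Vwf* had a log2 fold change of 0.59 (adjusted p = 0.163, edgeR). Adipocyte markers summed to 8.56 to 12 CPM against 9.21 to 10.4 CPM, and *Pparg* and *Cebpa* had log2 fold changes of -0.09 and 0.23 (adjusted p = 0.718 and 0.657, edgeR). Macrophage and leukocyte markers summed to 3.40 to 4.35 CPM against 3.91 to 4.56 CPM, *Cd68* and *Csf1r* had log2 fold changes of 0.08 and 0.38 (adjusted p = 0.844 and 0.751, edgeR), and *Ptprc* was at 0 counts. The part of cell composition in the levels of the members was not tested.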

How the data were processed

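Total RNA of 6 libraries (3 normal, 3 DM1) was sequenced. According to the submitters' processing notes, the authors used Trim Galore, HISAT2 with GRCm38, and StringTie (versions and strand setting not given in the sources used here). The authors deposited gene counts, and StringTie coverage, FPKM, and TPM values per library. In 99.2% of 14019 genes with 1 transcript, a count equalled coverage times length over 75 bases within 1 count in every library. Coverage served only for that check. Counts were scaled by TMM and tested with edgeR 4.0.16 (robust quasi-likelihood F-test, R 4.3.3) after filterByExpr with a minimum count of 10, which left 19005 of 55421 genes, with Benjamini-Hochberg adjustment over these. Scripts were tested on simulated data, where the share of false calls was above the nominal cutoff with edgeR and higher still with DESeq2, so calls near the cutoff are less certain than their adjusted p-values say. FPKM compared levels between genes. Cutoffs were an adjusted p-value under 0.05 and, for both cutoffs, an absolute log2 fold change over 1.

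The members and lists were chosen with earlier results of these data known. The genes named were all members, from each of the 3 lists up to 4 called genes per direction, taken by p-value, every gene past both cutoffs in any list, the 2 most abundant markers of each marker list, and the 5 genes most like *Postn*. Exceptions (*Stab1*, *Stab2*, *Twist1*, *Fn1*, *Col1a2*, *Col3a1*, *Bmp1*, *Tgfb1*, *Tgfb2*, *Tgfb3*, *Smad7*, *Ccn1*, *Ccn4*, *Ccn6*, and the markers *Myog*, *Myod1*, *Ckm*, *Mymk*, *Myf6*, *Mylpf*, *Mymx*, *Lum*, *Thy1*, *Fap*, *Pdgfra*, *Pi16*, *Tcf4*, *Acan*, *Matn1*, and *Ptprc*) were named after their values were seen. A gene of the partners and regulators list is counted but not reported here by name. Alternatives were DESeq2 1.42.0, other scalings and filters, counts divided by 4, a replicate block, glmTreat, limma 3.58.1 on log2(TPM + 1) or log2(TPM + 0.1), and leaving out each library. Sequences are from RefSeq, gene positions from the deposited tables. The study calls the libraries biological replicates. Since no source says whether they came from separate cultures, the p-values measure only the spread between these libraries.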

Additional observations from a re-analysis of the deposited data

How the results depend on the processing

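*Postn* kept its direction and its call in all 18 other settings, with log2 fold changes from 2.62 to 2.90. *Tgfbi* was called with DESeq2 (1.02) and with counts divided by 4 (1.01), was 0.53 with log2(TPM + 1), with and without the filter, and 0.99 with log2(TPM + 0.1), and went from 0.82 to 1.43 with 1 library left out. *Tnc* was not called with limma on log2(TPM + 1) (0.81), log2(TPM + 0.1) (0.82), or log2(TPM + 1) with no filter (0.81), nor with glmTreat (0.95), and went from 0.80 to 1.06 with 1 library left out. *Spp1* changed sign with library sizes alone (-0.01) and in the 3 limma settings (-0.07), and went from -0.14 to 0.16 with 1 library left out, being -0.01 without normal library 3. With 1 library left out *Thbs1* went from -0.01 to 0.36, *Sparc* from 0.16 to 0.38, and *Thbs2* from -0.22 to -0.06. In the 3 limma settings they were 0.07, 0.14, and -0.23. The causes were not tested. The 2 called members became 1 in the 3 limma settings and with glmTreat, and the 1 past both cutoffs became 2 with DESeq2 and counts divided by 4, and 1 to 2 with 1 library left out. In those limma settings in the order above, and with glmTreat, the 9 called other matricellular genes were 3, 3, 1, and 0, the 7 receptors 3, 3, 0, and 0, and the 9 partners and regulators 2, 2, 0, and 0, the last being 5 with library sizes alone. With 1 library left out these lists had 5 to 9, 2 to 8, and 4 to 12 calls. The 22 called markers were 3 with limma and no filter, 1 with glmTreat, and 15 to 21 with 1 library left out. By CPM, without length, *Postn* ranked 6th in the normal and 5th in the DM1 group, and by FPKM with 1 library left out 5 to 6 and 3 to 4. Over all genes, 3016 were called, against 776, 806, and 46 in the limma settings, 4 with glmTreat, and 1028 to 3789 with 1 library left out (3789 without DM1 library 3). Past both cutoffs were 414, against 139, 275, 24, and 4, and 273 to 438. The median log2 fold change of all genes, 0.02, was -0.09 on log2(TPM + 0.1). Deviations of same-numbered libraries from their group means correlated at 0.0675, 0.0222, and 0.0263. Not every library correlated best with its own number, and values this near 0 cannot settle whether the numbers pair the libraries. With the replicate number as a block 2823 genes were called, with log2 fold changes of 2.86 for *Postn*, 1.08 for *Tgfbi*, and 0.94 for *Tnc*, and the same 2 members were called. Of the genes named by rule, *Itgb8* was not called under the block (-0.67, edgeR adjusted p = 0.0519), leaving 6 receptors called, and *Mef2c* was not past the fold cutoff (-0.94). *Comp* had at most 11 counts and failed the filter, and *Tgfbi* had at most 172.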

Other observations

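The transcript length implied by the deposited counts and FPKM varied between libraries for several members. *Postn* has 9 annotated transcripts, 5 of them protein coding, and its implied length was 2409, 2135, and 2037 bases in the normal libraries and 2277, 2320, and 2335 bases in the DM1 libraries, so the groups overlapped. It varied from 2261 to 2508 bases for *Tgfbi*, over the 4 libraries where it was computed, and from 2085 to 2217 bases for *Sparc*. For *Tnc* it lay between 6951 and 7095 bases and for *Thbs1* between 5698 and 5767 bases in all 6 libraries.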
